A study of Mus musculus with 12 samples.

Results

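Transcripts of the aryl hydrocarbon receptor (AhR) battery, 7 genes in all, were followed in mouse fibroblasts, and 5 of them were abundant enough to be tested among 10982 genes. The set was fixed by gene name and holds the receptor Ahr, its dimer partner Arnt, the repressor Ahrr, and the response genes Tiparp, Aldh3a1, Cyp1a1 and Cyp1b1. All 7 symbols were among the 21671 genes of the deposited table. The members were chosen by their place in the pathway with the RPKM values of these libraries known, in particular those of VP against DMSO without OHT. For this reason the comparisons of VP with DMSO and with Y27, both without OHT, are given here as a description and carry no test. The tests of VP + OHT against DMSO + OHT and Y27 + OHT are not independent of that choice either. Only 5.86% of tested genes differed between VP + OHT and VP (limma adjusted p under 0.05).

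The cells were 3T9MycER, immortalised mouse embryo fibroblasts that constitutively express Myc fused to the hormone-binding domain of the estrogen receptor. Addition of 4-hydroxytamoxifen (OHT) activates Myc in these cells, at a dose and for a time that the labels do not give. The 12 RNA-seq libraries formed 6 groups of 2: VP + OHT, VP, Y27 + OHT, Y27, DMSO + OHT and DMSO. VP (verteporfin, an inhibitor of YAP acting through TEAD) was used at 20 µM and Y27 (Y27632, which blocks ROCK kinases) at 50 µM, each for 8 hours, and DMSO is the solvent. All groups carry MycER, so the groups without OHT are MycER cells with the fusion left off. Nothing in the labels says that the 2 libraries of a group came from separate cultures, so the p-values measure only the spread between these libraries. The paper describes the fibroblasts of its inhibitor experiments as serum-starved and then held in low serum. The sources differ on whether the cells were confluent or sparse, and their density is therefore not stated here.

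AhR is a ligand-activated transcription factor of the basic helix-loop-helix PAS family. Without ligand it is held in the cytoplasm by the chaperone Hsp90 with the cochaperone Ptges3. Ligands such as dioxins, polycyclic aromatic hydrocarbons and tryptophan derivatives send it to the nucleus, where it pairs with Arnt and binds the xenobiotic response element, whose core is GCGTG. The best known targets encode cytochrome P450 enzymes that oxidise the ligands, and Ahrr and Tiparp act back on the receptor as negative regulators.

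RefSeq promoter sequences (build GRCm38.p6) were at hand for 5 of the 7 members, namely Arnt, Ahrr, Cyp1a1, Cyp1b1 and Tiparp. The 250 bases before the start are shown for 4 of them, Ahrr and the response genes with a sequence. All 5 carry the core of the receptor's response element. Capitals mark GCGTG on either strand (CACGC is the same motif on the other strand). All are written 5′ to 3′ along the gene.
Ahrr, chr13:74292332-74292581, minus strand: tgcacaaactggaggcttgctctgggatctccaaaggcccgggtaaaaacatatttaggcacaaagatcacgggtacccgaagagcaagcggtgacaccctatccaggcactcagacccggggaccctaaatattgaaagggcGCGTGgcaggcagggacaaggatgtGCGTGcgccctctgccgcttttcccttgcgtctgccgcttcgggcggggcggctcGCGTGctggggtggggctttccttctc
Tiparp, chr3:65528197-65528446, plus strand: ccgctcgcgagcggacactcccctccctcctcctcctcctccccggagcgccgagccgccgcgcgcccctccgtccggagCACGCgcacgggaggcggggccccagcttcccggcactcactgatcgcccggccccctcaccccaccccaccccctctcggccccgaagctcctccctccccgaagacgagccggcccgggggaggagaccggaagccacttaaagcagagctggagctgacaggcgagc
Cyp1a1, chr9:57697363-57697612, plus strand: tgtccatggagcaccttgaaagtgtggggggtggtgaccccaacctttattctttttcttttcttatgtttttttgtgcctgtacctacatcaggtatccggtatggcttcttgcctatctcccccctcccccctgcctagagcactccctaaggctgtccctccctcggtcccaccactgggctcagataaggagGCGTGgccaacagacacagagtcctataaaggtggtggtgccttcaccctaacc
Cyp1b1, chr17:79715062-79715311, minus strand: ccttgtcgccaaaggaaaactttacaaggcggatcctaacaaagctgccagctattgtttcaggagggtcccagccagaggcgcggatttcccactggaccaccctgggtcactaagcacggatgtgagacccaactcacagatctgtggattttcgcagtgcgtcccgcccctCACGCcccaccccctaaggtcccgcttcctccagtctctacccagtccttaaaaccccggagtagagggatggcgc
Ahrr held 3 copies, beginning 107, 82 and 27 bases before the start. Tiparp, Cyp1a1 and Cyp1b1 held 1 copy each, 170, 54 and 76 bases before the start, and Arnt held 1 at 29 bases. GCGTG was present in 28.2% of the 32851 mouse promoters of the same length. Neither the E-box CACGTG, found in 6.02% of promoters, nor TTGCGTG, the core with 2 more bases and found in 0.925%, was present in any of the 5. Other longer forms of the core and bases further upstream were not searched. A match is a description of these letters and was not tied to binding.

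The totals behind the RPKM values (reads scaled by gene length in kilobases and by library size) were 21857777 to 30856488 per library, and 30.2% to 35.8% of each total lay in the genes of the table. The libraries of each group correlated with each other at 0.992 to 0.995 across tested genes on the log2(RPKM + 1) scale, and each pair differed by more than sampling noise (chi-square per degree of freedom 1.68 to 3.69). Col1a1, Col1a2, Col3a1, Pdgfrb, Vim and S100a4 marked the cells as fibroblasts, whereas Thy1 was at 0.0237 RPKM or less. The sum of the 7 fibroblast markers was 110 to 120 RPKM in the 4 VP libraries, against 186 to 247 RPKM in the other 8, and of 6 macrophage markers Cd14 and Cd68 had higher means with VP. Cd14 averaged 8.58 RPKM in VP + OHT and 1.23 RPKM in DMSO + OHT, and Cd68 2.45 RPKM in VP + OHT and 1.76 RPKM in DMSO + OHT. Csf1r, Ptprc, Itgam and Emr1 stayed at 0.0691 RPKM or less in all libraries, and the sum over the macrophage list was 8.97 to 12.1 RPKM in the VP libraries, against 2.23 to 3.43 RPKM in the others. The part of these markers in the results was not tested. The hepatocyte, epithelial, endothelial and adipocyte markers were below the level needed for testing. In bulk RNA, a change in the share of cells that express a gene and a change in RNA per cell cannot be told apart.

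Cells in DMSO already had most of the machinery. In DMSO, Cyp1b1 was by far the most abundant member at 44.0 ± 2.44 RPKM (mean ± SD, n = 2 here and below), followed by Tiparp at 8.80 ± 0.0955, Ahr at 7.53 ± 0.289 and Arnt at 5.33 ± 0.179 RPKM. Aldh3a1 was low at 0.681 ± 0.107 RPKM. Ahrr stood at 0.0571 RPKM, with 13 and 16 reads, and Cyp1a1 had a single read in the 2 libraries. Thus Cyp1b1 and Cyp1a1, related P450 enzymes and both textbook receptor targets, lay at opposite ends of the range in the same cells.

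**Figure D1:**
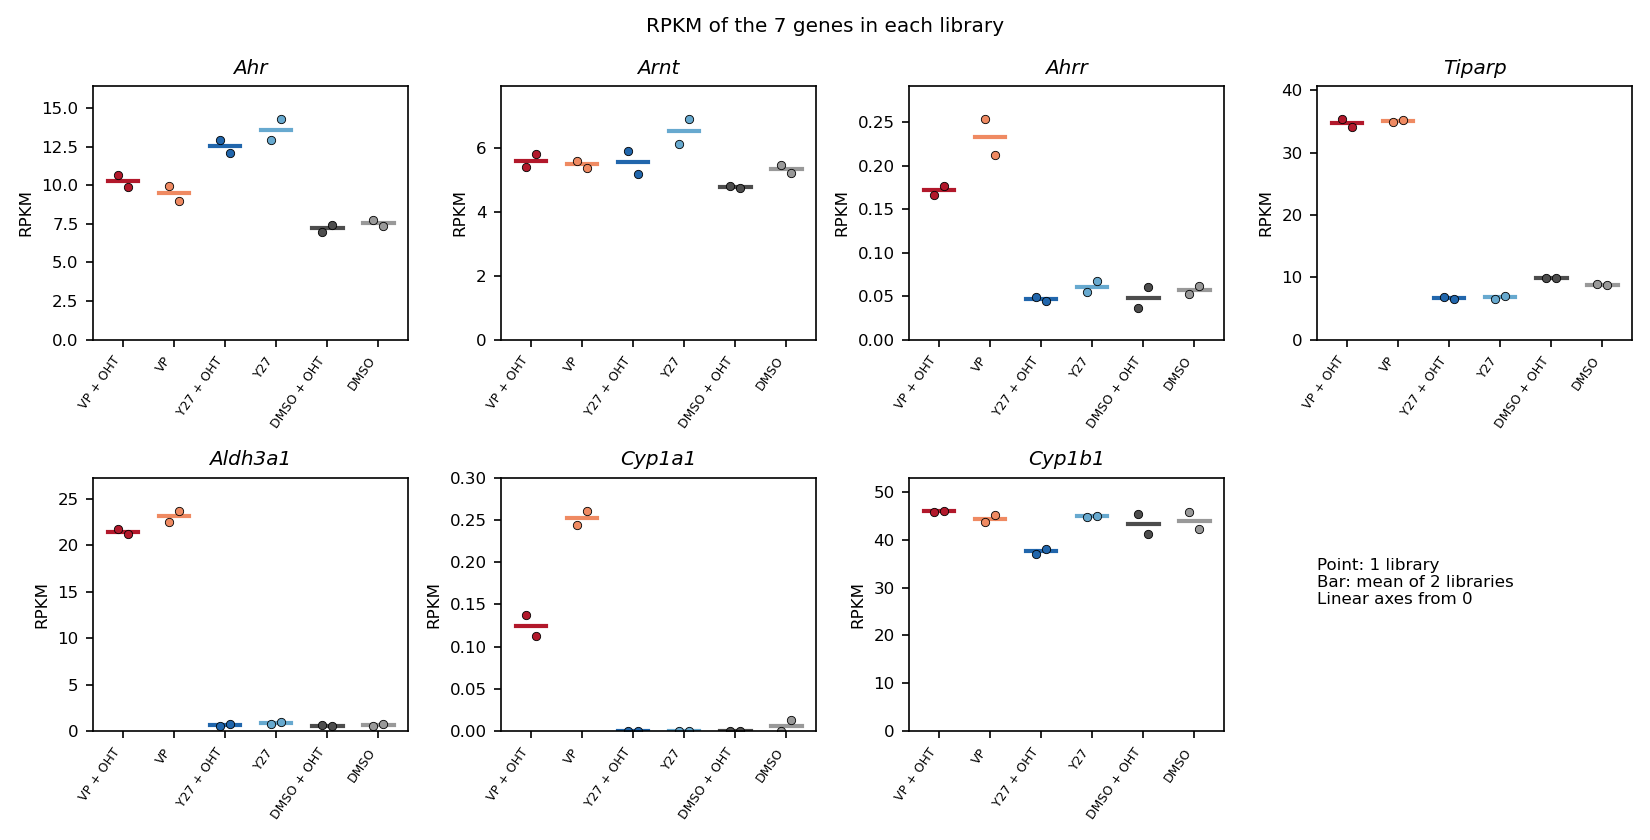
RPKM of the 7 genes (y axis, linear from 0, a separate scale per panel) in the 12 libraries, by group along the x axis. Points are libraries and bars the mean of 2. Aldh3a1, Ahrr and Cyp1a1 are high in the 4 VP libraries only, as is Tiparp at the gene length used, Ahr is highest in the Y27 libraries, and Cyp1b1 stays between 37.1 and 46.1 RPKM.

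The receptor itself was higher with either inhibitor, more so with Y27. Ahr had 12.9 and 12.1 RPKM in Y27 + OHT, 12.9 and 14.3 in Y27, 10.7 and 9.91 in VP + OHT, 9.96 and 8.97 in VP, and, in the solvent, 6.97 and 7.45 in DMSO + OHT and 7.74 and 7.33 in DMSO. No library of an inhibitor group overlapped those of the solvent groups. In the limma fit across 10982 genes, Ahr rose with Y27, with a log2 change of 0.77 ± 0.074 (SE) in Y27 over DMSO (adjusted p = 3.5e-06) and of 0.72 ± 0.074 in Y27 + OHT over DMSO + OHT (adjusted p = 8.9e-06). With VP + OHT over DMSO + OHT the change was 0.46 ± 0.074 (adjusted p = 0.00011). It was lower in VP + OHT than in Y27 + OHT, by a log2 change of -0.26 ± 0.074 (adjusted p = 0.0069), a call that was lost without VP + OHT replicate 2 (adjusted p = 0.07) or Y27 + OHT replicate 1 (adjusted p = 0.061). Every Ahr change is on the log2(RPKM + 1) scale, as are those below. With OHT, Ahr was not called on unscaled RPKM (adjusted p = 0.4 in VP + OHT over VP, 0.29 in Y27 + OHT over Y27 and 0.6 in DMSO + OHT over DMSO). Under quantile normalization it was called lower in DMSO + OHT than in DMSO, with a log2 change of -0.18 (adjusted p = 0.039), against -0.06 on unscaled RPKM.

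Arnt, the partner that AhR shares with the hypoxia factor Hif1a, varied little. The length recovered for it, 7122 bases, was longer than the annotated 4372. Its 12 values lay between 4.74 and 6.89 RPKM, with the highest mean in Y27 (6.5 ± 0.546 RPKM) and the lowest in DMSO + OHT (4.77 ± 0.0399 RPKM). Arnt rose in Y27 over DMSO by 0.24 ± 0.078 (adjusted p = 0.019), a call that was lost without DMSO replicate 2 (adjusted p = 0.095) or Y27 replicate 2 (adjusted p = 0.14). The log2 change of 0.19 in VP + OHT over DMSO + OHT (SE 0.078) passed narrowly (adjusted p = 0.046) and was lost when any 1 of the 8 VP, VP + OHT, DMSO or DMSO + OHT libraries was left out (adjusted p = 0.053 to 0.24). The value in Y27 + OHT over DMSO + OHT was 0.18 ± 0.078 (adjusted p = 0.082), and it was called there under median-ratio scaling (0.29, adjusted p = 0.0037), quantile normalization (0.34, adjusted p = 0.0006) and voom on reads (0.22, adjusted p = 0.043). With OHT alone, the change of -0.13 in DMSO + OHT over DMSO (adjusted p = 0.21) was called under median-ratio scaling (-0.23, adjusted p = 0.017) and quantile normalization (-0.23, adjusted p = 0.0063).

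Ahrr encodes a repressor that competes with AhR for Arnt, and its transcript is a sensitive readout of receptor activity. It had 44 and 47 reads in VP + OHT and 72 and 51 in VP, against 12 and 9 in Y27 + OHT, 11 and 15 in Y27, 8 and 16 in DMSO + OHT and 13 and 16 in DMSO. The 4 VP libraries stood above all others, at 0.166 to 0.253 RPKM against 0.0365 to 0.0669 RPKM. Its mean was under the minimum of 0.5 RPKM set for testing, so its reads were compared. The read numbers rest on the length recovered for Ahrr, 9206 bases, which was longer than the annotated 4754. Per library total, VP + OHT had 3.47 times the reads of DMSO + OHT (exact 95% interval 2.19 to 5.69), and as a description VP had 4.1 times those of DMSO. Intervals of this kind cover counting error only. The corresponding ratios for Y27 were 0.947 (0.501 to 1.78) over DMSO + OHT, with OHT present, and 1.07 (0.605 to 1.88) over DMSO.

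Tiparp, a mono-ADP-ribosyltransferase that modifies AhR and shuts it off, was higher with VP than with DMSO, while its direction with Y27 rests on the gene length used. It had 35.4 and 34.1 RPKM in VP + OHT and 34.9 and 35.3 in VP, then 6.90 and 6.56 in Y27 + OHT and 6.60 and 6.98 in Y27, against 9.95 and 9.82 in DMSO + OHT and 8.87 and 8.73 in DMSO. At this length the 3 treatments did not overlap. With VP + OHT it was 3.51-fold higher than with DMSO + OHT, with a log2 change of 1.71 ± 0.057 (adjusted p = 8.2e-11). In Y27 it fell by 0.33 ± 0.057 on the log2 scale over DMSO (adjusted p = 0.00036) and, with OHT, by 0.49 ± 0.057 over DMSO + OHT (adjusted p = 2.3e-05), where the median of all tested genes was at -0.0996.

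The Tiparp values in Y27 rest on a choice made when the lost decimal signs were put back. A length of 4154 bases gives whole reads in all libraries and lies beside the annotated 4191 bases. A length of 2077 bases also gives whole reads, and would place the Y27 and Y27 + OHT libraries at 65.6 to 69.8 RPKM, with the VP and DMSO values unchanged. The digits alone hardly separate the 2 lengths: at 4154 bases the 8 libraries outside the Y27 groups all have even read numbers, and at 2077 bases the 4 Y27 libraries all have read numbers that end in 0 or 5. Among the 5303 genes with a lost sign and only 1 possible placement, 45.6% had a recovered length within 5% of the annotated one and 0.471% within 5% of 0.5 times it. At 2077 bases the Tiparp calls turn round, with log2 changes of 2.81 in Y27 over DMSO (adjusted p = 1.7e-11), 2.65 in Y27 + OHT over DMSO + OHT (adjusted p = 2.4e-11) and -0.94 in VP + OHT over Y27 + OHT (adjusted p = 4.5e-08). The direction of Tiparp with Y27 is therefore not settled, and its rise in VP + OHT over DMSO + OHT is the same at both lengths.

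Aldh3a1, an aldehyde dehydrogenase that clears aldehydes from lipid peroxidation, showed the widest fold range of the 5 tested members. It had 21.7 and 21.2 RPKM in VP + OHT and 22.6 and 23.7 in VP. The other 8 libraries lay between 0.521 and 0.952 RPKM, with 0.610 and 0.761 in Y27 + OHT, 0.795 and 0.952 in Y27, 0.633 and 0.521 in DMSO + OHT and 0.606 and 0.757 in DMSO. The means of VP + OHT and DMSO + OHT differed 37.1-fold, with a log2 change of 3.83 ± 0.084 (adjusted p = 5.1e-12). The ratio of means in VP over DMSO was 33.9. That difference was known when the members were chosen, and VP + OHT stood close to VP (log2 change -0.105). The p-value for VP + OHT is therefore no independent support. Y27 gave no call on unscaled RPKM, with changes of 0.10 ± 0.084 (adjusted p = 0.39) in Y27 + OHT over DMSO + OHT and 0.16 ± 0.084 (adjusted p = 0.14) in Y27 over DMSO. The second of these was called under quantile normalization (0.34, adjusted p = 0.0042). In these 8 libraries 26 to 40 reads stood behind each value, against 1055 to 1202 in the VP libraries.

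Cyp1a1, the P450 enzyme most often used to report AhR activation, was detected almost only with VP. It had 11 and 9 reads in VP + OHT and 21 and 19 in VP, 0 reads in the Y27 + OHT, Y27 and DMSO + OHT libraries, and 0 and 1 in DMSO. In VP the level was 0.253 ± 0.0119 RPKM, still far below that of Cyp1b1. Against a floor of 3 reads in both DMSO + OHT libraries together (0.0205 RPKM), VP + OHT was 6.1-fold higher. Against the same floor in the Y27 + OHT libraries it was 5.64-fold higher. Neither value allows for counting error in the VP + OHT reads. As a description, VP had 40 reads in all and DMSO 1. In VP + OHT the reads were 0.495 times those in VP (exact 95% interval 0.274 to 0.867, counting error only).

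A model on reads, limma voom for genes with at least 10 reads, took in both scarce members and was chosen after their levels were seen. It called 53.7% of 15098 genes in VP + OHT over DMSO + OHT. Ahrr was among them, with a log2 change of 1.79 ± 0.336 (adjusted p = 4.8e-05). Cyp1a1 passed the minimum of 10 reads only through the VP libraries, with 40 reads in VP and 20 in VP + OHT. Its difference from DMSO + OHT was fixed by that minimum, so no call is given for it there. The voom model called 5.93% of genes in VP + OHT over VP and neither member. The log2 change was -0.99 ± 0.379 for Cyp1a1 (adjusted p = 0.13) and -0.44 ± 0.214 for Ahrr (adjusted p = 0.25).

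Cyp1b1, which oxidises estradiol and polycyclic hydrocarbons and is the main P450 of this family in fibroblasts, was not called with VP on unscaled RPKM. It had 45.8 and 46.1 RPKM in VP + OHT, 43.7 and 45.1 in VP, 37.1 and 38.2 in Y27 + OHT, 44.8 and 45.0 in Y27, 45.4 and 41.2 in DMSO + OHT and 45.7 and 42.3 in DMSO. The log2 change in VP + OHT over DMSO + OHT was 0.09 (95% interval -0.09 to 0.26, adjusted p = 0.36), and in VP over DMSO the interval was -0.16 to 0.19. It was called higher in VP + OHT under median-ratio scaling (0.20, adjusted p = 0.018) and quantile normalization (0.15, adjusted p = 0.0064). The Y27 + OHT libraries stood lowest. Cyp1b1 fell by 0.25 ± 0.081 on the log2 scale in Y27 + OHT over Y27 (adjusted p = 0.031), a call lost without any 1 of the 6 VP + OHT, Y27 + OHT or Y27 libraries (adjusted p = 0.06 to 0.14). It was higher in VP + OHT than in Y27 + OHT by 0.28 ± 0.081 (adjusted p = 0.0075; adjusted p = 0.051 without VP + OHT replicate 2).

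The coverage of Cyp1b1 was among the densest in the data. It had 0.842 to 1.35 reads per base of its length, and only 0.666% of tested genes were denser on average. The very abundant transcripts Actb and Eef2 hardly moved with depth, at 2727 to 3133 and 5341 to 5603 reads. The library totals differed 1.41-fold between the highest and the lowest. Cyp1b1 had 4370 to 6993 reads, with 5084 at the lowest library total (Y27 replicate 1) and 6993 at the highest (VP replicate 1), which differ in treatment. In DMSO, replicate 1 had 6352 reads and replicate 2, with the larger total, 6206. The library with the larger total had the lower Cyp1b1 RPKM in DMSO, DMSO + OHT, VP and Y27 + OHT, and the higher in Y27 and VP + OHT. Among 16874 genes of at least 1000 bases, 2 exceeded 2 reads per base in any library. Tiparp in the VP libraries was at 0.921 to 1.08 and Aldh3a1 at 0.611 to 0.696 reads per base. Whether reads at the same position were counted once is not stated in the labels or methods, and its part in these levels was not tested.

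**Figure D2:**
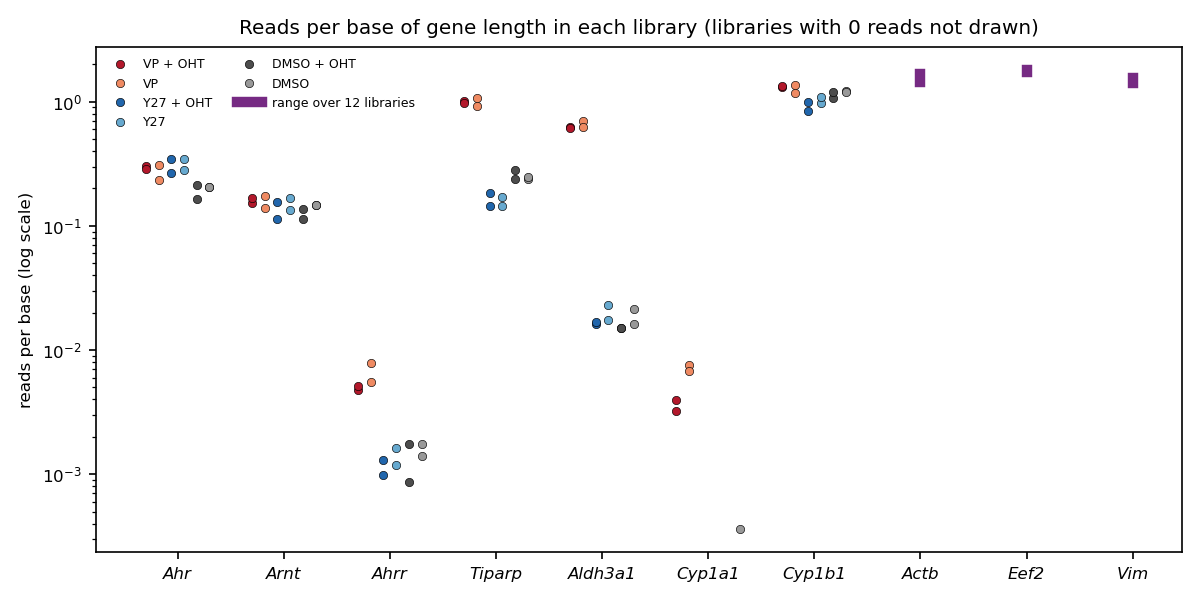
Reads per base of gene length (y axis, log scale) for the 7 genes in each library, coloured by group, beside the range over the 12 libraries for the abundant transcripts Actb, Eef2 and Vim (bars). Cyp1b1 lies at 0.842 to 1.35, just under these transcripts, while Ahrr and Cyp1a1 lie below 0.01; libraries with 0 reads are not drawn.

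Counted over the set, 5 of the 7 members reached the mean of 0.5 RPKM and were tested. In VP + OHT over DMSO + OHT 4 of 5 were called, all higher, where 64.7% of all tested genes were called, 25.5% as higher and 39.2% as lower. No calls are given for VP over DMSO and VP over Y27, where 68.0% and 70.6% of all genes were called. In Y27 over DMSO 3 of 5 were called, Ahr and Arnt higher and Tiparp lower (higher at the other length), against a background of 50.8%, with 17.2% higher and 33.6% lower. Of the 5, 2 in Y27 + OHT over DMSO + OHT were called, Ahr higher and Tiparp lower (higher at the other length), against 43.5%, with 10.4% higher and 33.1% lower. In VP + OHT over Y27 + OHT 4 of 5 were called against 66.5% of all genes, 34.7% higher and 31.8% lower, with Aldh3a1 31.2-fold higher, Tiparp 5.16-fold higher (lower at the other length), Cyp1b1 higher and Ahr lower. With backgrounds this wide, the counts of calls in either direction are near the shares of all genes. The members differ from one another mainly in size and direction. In VP + OHT over DMSO + OHT the 4 calls were all higher, against 25.5% of all genes. The Arnt call among them was lost in 8 of 12 fits with 1 library left out. The median log2 change of the 5 members in VP + OHT over DMSO + OHT was 0.46, against -0.09 for all tested genes. The members were chosen with the values of VP over DMSO known, and few genes differed between VP + OHT and VP. The share of higher calls and this median are therefore descriptions and no support for the set. VP and Y27 are compared with the same DMSO libraries, so their values are not independent of each other.

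OHT, which activates MycER, gave 1 call among the members on unscaled RPKM. Quantile normalization gave 2 in each of DMSO + OHT over DMSO and Y27 + OHT over Y27. All groups carry MycER, so MycER activation and other effects of OHT cannot be told apart. In DMSO + OHT over DMSO, limma called 0 of 5 members, against 34.1% of all tested genes. The member nearest to a call was Tiparp, with a log2 change of 0.15 ± 0.057 (adjusted p = 0.056), and it was also the only 1 with an unadjusted p under 0.05. For VP + OHT over VP 0 of 5 were called against 5.86%, with 0 at an unadjusted p under 0.05. In Y27 + OHT over Y27 the only call was the fall of Cyp1b1, against 31.9%, with 19.9% higher and 11.9% lower. The voom fit on reads called 0, 0 and 2 of the same 5 members in these comparisons. The OHT response in VP differed from that in DMSO for 0 of 5 members against 4.03% of all genes, and the response in Y27 for 0 of 5 against 0.1%, with 0 unadjusted p under 0.05 in either and 0 calls by voom. For Aldh3a1 the difference between the OHT responses in VP and in DMSO was -0.01 (95% interval -0.27 to 0.24), and for Ahr 0.17 (-0.06 to 0.39).

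**Figure D3:**
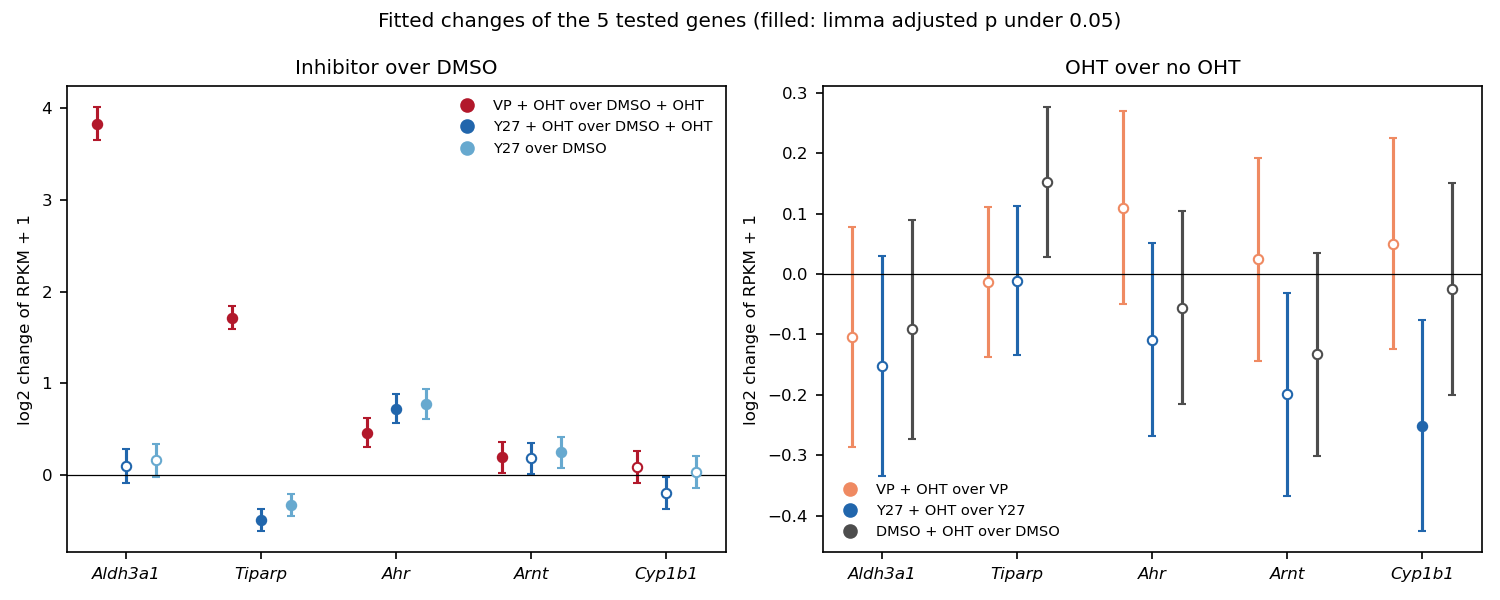
Fitted log2 changes of RPKM + 1 (y axis) with 95% intervals for the 5 tested genes, for the inhibitors over DMSO (left) and for OHT over no OHT (right, a narrower scale). Filled points have a limma adjusted p under 0.05: Aldh3a1 and Tiparp reach 3.83 and 1.71 in VP + OHT over DMSO + OHT, and the OHT changes all lie within 0.3 of zero.

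The remaining genes of the pathway were taken from lists of known function. Of 7 genes of the receptor's complex and its coactivators, 2 rose and 1 fell in VP + OHT over DMSO + OHT, with a median of -0.06. Across all tested genes 64.7% were called in this comparison, 25.5% higher and 39.2% lower, with a median of -0.09. Ncoa3, a coactivator, rose by 0.82 ± 0.084 on the log2 scale (adjusted p = 1.9e-06) to 6.92 ± 0.283 RPKM in VP + OHT, against 3.49 ± 0.0454 in DMSO + OHT, and Ncoa1 by 0.30 ± 0.089 (adjusted p = 0.01). Arnt2, a relative of Arnt, fell by 0.39 ± 0.079 (adjusted p = 0.00073). The chaperone parts Hsp90aa1, Hsp90ab1 and Ptges3 were not called there. Only Ncoa3 of the 7 was called in Y27 + OHT over DMSO + OHT, with a log2 change of 0.24 ± 0.084 (adjusted p = 0.032), and in Y27 over DMSO none was.

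Other xenobiotic enzymes were mostly below the level for testing. Of 10 listed enzymes 9 were in the table and only Nqo1 and Ugdh reached the level for testing. Nqo1, a quinone reductase that both AhR and the oxidative stress factor NRF2 are known to induce, was called with both inhibitors, in opposite directions. It had 22.5 ± 0.351 RPKM in VP + OHT and 0.522 ± 0.0872 RPKM in Y27 + OHT, against 1.36 ± 0.255 RPKM in DMSO + OHT, a log2 change of 3.32 ± 0.085 with VP (adjusted p = 9.2e-12) and of -0.63 ± 0.085 with Y27 (adjusted p = 7.7e-05). Ugdh, which makes the sugar donor for glucuronidation, rose by 0.35 ± 0.082 with VP + OHT (adjusted p = 0.002) and fell by 0.25 ± 0.082 with Y27 + OHT (adjusted p = 0.027).

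Among 8 further genes described as raised by AhR ligands, 6 were tested. Il6 passed the minimum only through its level with VP (1.64 RPKM in VP + OHT and 1.63 in VP, with no read in DMSO + OHT), so its difference was fixed by that minimum and it is not counted. Of the other 5, 4 rose and 1 fell in VP + OHT over DMSO + OHT, where 25.5% of all genes rose and 39.2% fell. Ereg, an EGF receptor ligand, had 30.1 ± 1.23 RPKM in VP + OHT, against 2.03 ± 0.555 in DMSO + OHT (log2 change 3.37 ± 0.125, adjusted p = 2.1e-10). Nfe2l2, which encodes NRF2, rose by 1.38 ± 0.069 (adjusted p = 2.1e-09), and the cell cycle inhibitor Cdkn1b fell by 0.30 ± 0.06 (adjusted p = 0.00062). With Y27 + OHT over DMSO + OHT 2 of these 5 fell (Ereg and Stc2) and none rose, where 33.1% of all genes fell.

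Of 12 other bHLH-PAS factors 3 were tested, and all 3 rose in VP + OHT over DMSO + OHT, where 25.5% of all genes rose. Hif1a, which competes for Arnt, had 26.7 ± 0.201 RPKM in VP + OHT, against 15.8 ± 2.79 in DMSO + OHT (log2 change 0.73 ± 0.09, adjusted p = 1e-05). The clock factor Arntl had 2.58 ± 0.109 RPKM in VP + OHT, against 0.317 ± 0.0878 in DMSO + OHT (log2 change 1.44 ± 0.093, adjusted p = 2.1e-08), and Clock rose by 0.35 ± 0.061 (adjusted p = 0.00021).

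Since Aldh3a1 and Nqo1 are also known as NRF2 genes, 7 NRF2 targets that are not usually counted to the AhR battery were set beside them. Of the 7, 6 rose in VP + OHT over DMSO + OHT, with a median log2 change of 1.56, where 25.5% of all genes rose and their median was -0.09. Slc7a11, the cystine transporter, rose by 2.35 ± 0.097 (adjusted p = 4.3e-10), Srxn1 by 1.86 ± 0.106, and Txnrd1 to 36.1 ± 0.488 RPKM, against 11.6 ± 0.921 in DMSO + OHT. In Y27 over DMSO 6 of 7 fell, with a median of -0.64, against 33.6% of all genes and a median of -0.07. In Y27 + OHT over DMSO + OHT 5 of 7 fell, against 33.1% of all genes. The part of either pathway in the level of Aldh3a1 was not tested.

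**Figure D4:**
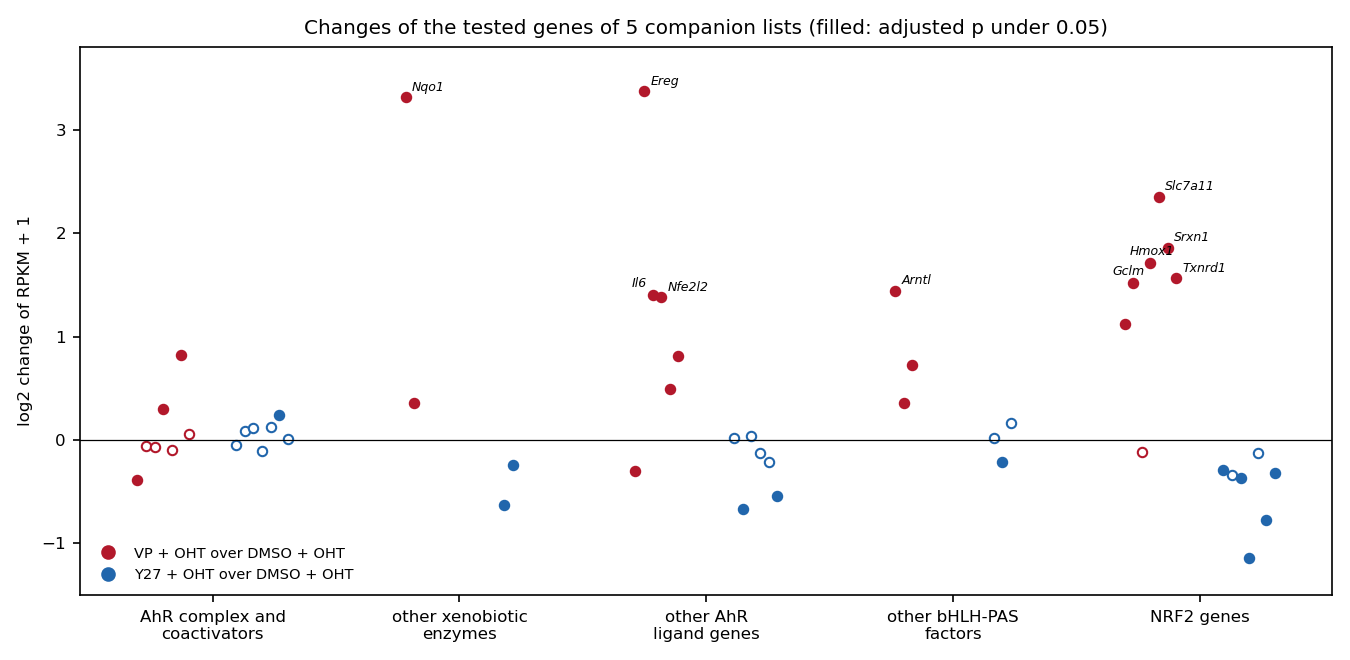
Log2 changes of RPKM + 1 (y axis) of each tested gene in the 5 lists (x axis), for VP + OHT over DMSO + OHT and for Y27 + OHT over DMSO + OHT. Filled points passed an adjusted p of 0.05, and Il6 is drawn although it was tested only through its level with VP. With VP, Nqo1 reaches 3.32, Ereg 3.37 and Slc7a11 2.35, and the genes of the receptor's complex lie within 0.82 of zero.

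Genes with the most similar profile were listed for each tested member by Pearson correlation over the 12 libraries on the log2(RPKM + 1) scale. The values are descriptions, since the libraries fall into clusters by inhibitor, and that of Tiparp holds for the gene length used. Aldh3a1 was closest to Tgtp2, Lcn2 and Serpina3g (r = 0.9985, 0.9984 and 0.9984), and Tiparp to Adh7, Txnrd1 and Lif (0.9968, 0.9959 and 0.9958). Ahr, which was highest in Y27, was closest to Rhou, Dusp10 and Vmn2r1 (0.9902, 0.9817 and 0.9767). Arnt was nearest to Dcaf10, Dlg5 and Ammecr1l (0.967, 0.947 and 0.939). Cyp1b1, with the flattest profile, had weaker neighbours in Nupr1, Tmem176b and Nrbp1 (0.899, 0.893 and 0.878).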

How the data were processed

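RNA was sequenced from 12 libraries in 6 groups of 2, from total RNA without poly(A) selection. Per the labels' processing notes, the authors aligned reads to mm9 with TopHat2 2.0.8, used SAMtools and counted with featureCounts 1.4.5-p1. The deposited values are RPKM, in which every value of 1 or more (46.4% of 260052) had lost its decimal sign. The deposited comparison tables, with the authors' DESeq2 fold changes, p-values and adjusted p-values, were not used.

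The sign was put back without these comparisons. Behind each RPKM stand whole reads, scaled by gene length and library total. Totals were the common divisors of intact low values. For each gene, lengths from 5 times below to 5 times above the annotated one (GENCODE, RefSeq-linked transcripts, GRCm38) that gave whole reads in all libraries within 0.0001 were listed. They were ranked by nearness to the annotated length, by closeness of replicates and of groups, which leans towards smaller changes, and by fewer reads. Of 10858 genes with a sign put back, 5303 had only 1 possible placement, and the others rest on this ranking. Among the members, only Tiparp was also fitted at another placement. Left out were 80 genes with 2 placements too close to rank, 60 with no annotated length, 18 with no whole reads and 27 whose symbols had turned into dates. The recovered lengths had a median ratio of 1.00 to the annotated ones, which is no independent check.

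The 10982 genes whose mean over all libraries reached 0.5 RPKM entered a limma 3.58.1 (R 4.3.3) test of log2(RPKM + 1), in 1 fit of the 12 libraries with 6 group means, a mean-variance trend and Benjamini-Hochberg adjustment over all tested genes. A gene is called at an adjusted p under 0.05. Fold changes on this scale understate changes of low genes. An exact permutation test of 2 against 2 libraries cannot go below p = 0.333 (two-sided), so none was run. Ratios of reads have exact (Clopper-Pearson) intervals from scipy 1.17.1, and a count of 0 was set at a floor of 3 reads per group. Scripts were tested on simulated data.

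The 7 members, the lists of other genes and the tests were chosen with earlier results of these data known. Named genes were the members, the lists, and the 3 genes most correlated with each tested member; Actb and Eef2 were named after their values were seen. From the lists, 2 genes are not reported here and were left out of their counts. The labels give no batch. Only 2 of 15 correlations of deviations between groups, matched by replicate number, were above 0.1 (-0.22 to 0.28). With 2 libraries a group, these values do not settle whether libraries of the same number were prepared together. Alternatives were another pseudocount, filter, scaling, model on reads, the replicate block, fits of 8 libraries, each library left out in turn and, chosen after seeing the data, Tiparp at its other possible length.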

Additional observations from a re-analysis of the deposited data

Results flagged for a closer look

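The OHT response differed between VP and DMSO for 3 of the 25 tested genes of the companion lists, by the interaction term of the limma fit, which called 4.03% of all tested genes. Arntl, a clock factor, fell with OHT in DMSO and was not called with OHT in VP, with a difference of 0.58 ± 0.132 on the log2 scale (adjusted p = 0.031). Gclc and Gsr, enzymes of glutathione synthesis and recycling, rose with OHT in DMSO and were not called with OHT in VP, with differences of -0.82 ± 0.143 (adjusted p = 0.0078) and -0.82 ± 0.122 (adjusted p = 0.0042). No cause was tested.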

How the results depend on the processing

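The rise of Aldh3a1, Tiparp and Ahr in VP + OHT over DMSO + OHT, the rise of Ahr in Y27, with and without OHT, and the call of Aldh3a1 in VP + OHT over Y27 + OHT held under every alternative run, including each library left out. Tiparp at the other gene length, an alternative chosen after seeing the data, turned to 2.81 in Y27 over DMSO, 2.65 in Y27 + OHT over DMSO + OHT and -0.94 in VP + OHT over Y27 + OHT, and left 1 member instead of 2 with a log2 difference of at least 1 in VP over Y27. Apart from that alternative, of 45 tested values 340 of 360 under other settings and 517 of 540 with 1 library left out stayed on the same side of the threshold. Quantile normalization called 5 members in Y27 over DMSO, 4 in Y27 + OHT over DMSO + OHT, 2 in DMSO + OHT over DMSO and 2 in Y27 + OHT over Y27, and turned Cyp1b1 in Y27 over DMSO to -0.11 (adjusted p = 0.036). Median-ratio scaling called 1 in DMSO + OHT over DMSO and 2 in Y27 + OHT over Y27. In Y27 + OHT over DMSO + OHT these scalings moved the median of all tested genes by 0.114 and 0.109. The voom fit called 4 in Y27 + OHT over DMSO + OHT and 2 in Y27 + OHT over Y27. With no filter, 1 member was called in each of DMSO + OHT over DMSO (Tiparp), VP + OHT over VP (Cyp1a1) and the difference of OHT responses between VP and DMSO (Cyp1a1). In Y27 + OHT over Y27, 0 were called with the replicate block and 0 in the fit of 8 libraries. Whether the replicate numbers pair the libraries is not settled. The block also lost the Arnt call in VP + OHT over DMSO + OHT (adjusted p = 0.056) and changed no other. With 1 library left out, 0 to 1 were called in Y27 + OHT over Y27 and 2 to 4 in VP + OHT over Y27 + OHT. In Y27 + OHT over DMSO + OHT, a call was gained by Cyp1b1 without DMSO + OHT replicate 2 (adjusted p = 0.023) and by Arnt without Y27 + OHT replicate 2 (adjusted p = 0.046). Arnt was also gained in Y27 + OHT over Y27 without Y27 replicate 1 (adjusted p = 0.04) or Y27 + OHT replicate 1 (adjusted p = 0.042). The causes were not tested. Ahrr and Cyp1a1 rest on 314 and 61 reads in all.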
